A study of Homo sapiens with 28 samples.

Results

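NEAT1 and MALAT1 are neighbouring genes on human chromosome 11 whose long noncoding RNAs stay in the nucleus. They were examined in H3K27ac ChIP-seq peak lists of SW872 cells, an established human liposarcoma line, over the hg19 window 11:65150000-65300000. The members are fixed by position, with no measured value in the rule. They are NEAT1 at 11:65190269-65213011 and MALAT1 at 11:65265233-65273940, together with every peak that overlapped the window by at least 1 bp. This gave 253 of the 654580 peaks in the 14 lists, with 13 to 25 peaks per list.

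NEAT1 RNA is the scaffold of paraspeckles, nuclear bodies that retain RNAs and RNA-binding proteins. MALAT1 RNA collects at nuclear speckles, which store splicing factors, and is among the most abundant noncoding RNAs of many cell types. H3K27ac is acetylation of lysine 27 on histone H3, a mark of active promoters and enhancers, and a ChIP-seq peak is an interval where fragments carrying the mark exceed the local background. In the RefSeq gene order the genes before NEAT1 are SLC25A45 and FRMD8, and those between the members are FAUP4, ENEMAL and LINC02736. NEAT1 hosts MIR612, and MALAT1 is overlapped by its antisense RNA TALAM1 and by MASCRNA, the small RNA cleaved from its 3′ end.

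The cells had been stably transduced with an empty vector (EV) or with 1 of 6 Flag-tagged constructs, and each of the 7 labels had 2 libraries. TAZ-CAMTA1 and YAP-TFE3 are fusion proteins of epithelioid hemangioendothelioma, a vascular cancer. In TAZ4SA and YAP5SA the sites that the Hippo pathway phosphorylates to inhibit TAZ and YAP are mutated. CAMTA1 and TFE3 were also expressed at full length. The comparisons ask whether a fusion changes the acetylated chromatin relative to these controls. The lines are selected pools of 1 cell line with constructs driven from a retroviral vector, and per the labels the CAMTA1 cells were collected below confluence and the others at 90% confluence, while the study's ChIP-seq methods give 90% for every construct.

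The peaks of a list are named for a construct as well. In 14 of 14 lists that construct is not the one on the label. Libraries are therefore written as the label, then the construct of the peak names in brackets, then the replicate. They are EV [CAMTA1], TAZ4SA [EV], TAZ-CAMTA1 [TAZ4SA], CAMTA1 [TAZ-CAMTA1], YAP5SA [TFE3], YAP-TFE3 [YAP5SA] and TFE3 [YAP-TFE3], each with replicates 1 and 2. Groups are those of the labels, and which naming is right cannot be told apart from the lists. The labels name H3K27ac as the antibody, while their shared extract protocol names the Flag antibody. Markers of SW872 identity were not checked, because the annotation used here is of another build than the lists.

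The lists differed widely in length. TFE3 [YAP-TFE3] replicate 1 held 5721 peaks over 3.70 Mb, while TAZ4SA [EV] replicates 1 and 2 held 102009 and 98992 peaks over 175 and 143 Mb. The other 11 lists held 21748 to 57505 peaks. Read totals were not used here, so the depth of a library is known only through its peaks.

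RefSeq's promoter table for GRCh38.p14 held MALAT1 and not NEAT1. It gives MALAT1 a pair of transcript starts 1307 bp apart on the plus strand, each as 250 bases before and 50 bases from the start on, at chr11:65497488-65497787 and chr11:65498795-65499094. They are shown because peaks covered the MALAT1 start in nearly all lists and because the windows differ in composition. Capitals mark the searched motifs that were found: the GC box GGGCGG on either strand in the first, and the TATA box TATAAA in the second.
MALAT1 promoter 1: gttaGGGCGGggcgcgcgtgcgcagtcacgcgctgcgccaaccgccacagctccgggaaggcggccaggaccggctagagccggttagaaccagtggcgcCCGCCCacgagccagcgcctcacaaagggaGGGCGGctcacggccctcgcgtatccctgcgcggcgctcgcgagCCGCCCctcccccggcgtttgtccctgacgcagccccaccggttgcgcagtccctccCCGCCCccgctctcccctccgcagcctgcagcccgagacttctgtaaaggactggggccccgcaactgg
MALAT1 promoter 2: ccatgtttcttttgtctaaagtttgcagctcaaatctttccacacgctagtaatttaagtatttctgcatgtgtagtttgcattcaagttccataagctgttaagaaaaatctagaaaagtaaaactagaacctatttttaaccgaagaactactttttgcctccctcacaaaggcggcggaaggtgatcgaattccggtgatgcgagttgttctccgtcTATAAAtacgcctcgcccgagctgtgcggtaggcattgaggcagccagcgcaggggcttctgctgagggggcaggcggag

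The first window was 73.7% G or C with 37 CpG dinucleotides, against medians of 58.7% and 14 over the 35116 promoter windows of the table, and 11.3% of all windows held at least as many CpG. It held 5 GC boxes, with their first bases 246, 150, 120, 76 and 19 bp before the start, and 45.0% of all windows held at least 1. The second window was 46.0% G or C with 14 CpG, and its TATA box began 30 bp before the start. Of all windows, 11.5% held TATAAA. Neither window held CATTCC, the core bound by TEAD factors through which TAZ and YAP act on DNA, which 14.03% of all windows held. Nor did either hold CACGTG, the E-box of the TFE3 family (7.26% of windows), TGACTCA or its reverse complement TGAGTCA, the AP-1 site (4.95%), or CCAAT, the NF-Y box (34.6%). Both strands were searched, and no searched motif overlapped another in these windows. Whether the first RefSeq start and the hg19 start used for the peaks are the same base was not tested.

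H3K27ac peaks covered 22447 to 115029 bp of the 150001 bp window, or 15.0% to 76.7% (median 38.5%, 14 lists). This was 11.8 to 109 times the average of the whole list (median 19.0), the average being the Mb covered over a genome of 2700000000 bp. Tiles of the same length were laid along the genome, and the 12082 with a peak in any list were kept. Of these, 0 to 63 were covered over at least as many bp as the window, depending on the list, which is 0 to 0.521%. The window therefore lay among the most widely acetylated stretches of its size in each list. Peak widths in it ran from 255 to 40953 bp, with a median of 1108 bp.

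The number of peaks in the window followed its coverage only loosely. EV [CAMTA1] had 17 and 17 peaks and TAZ4SA [EV] 24 and 25. TAZ-CAMTA1 [TAZ4SA] had the fewest in a single list, with 13 and 15. CAMTA1 [TAZ-CAMTA1] had 20 and 22 peaks, although replicate 2 covered 46645 bp and replicate 1 covered 67521 bp. YAP5SA [TFE3] had 16 and 18 peaks, and YAP-TFE3 [YAP5SA] 15 and 14. TFE3 [YAP-TFE3] had 16 and 21, so the list with the least coverage, 22447 bp in replicate 1, held as many peaks as YAP5SA [TFE3] replicate 1, which covered 57128 bp. NEAT1 was overlapped by 1 to 8 peaks per list (median 4.5) and MALAT1, in fewer and longer pieces, by 1 to 4 (median 2). The number of peaks in the window changed more than 1.5-fold in 13 lists when all were cut to equal numbers of peaks. It did so in 12 lists when peaks up to 1000 bp apart were joined, and in 9 at a −log10 q of at least 5.

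**Figure D1:**
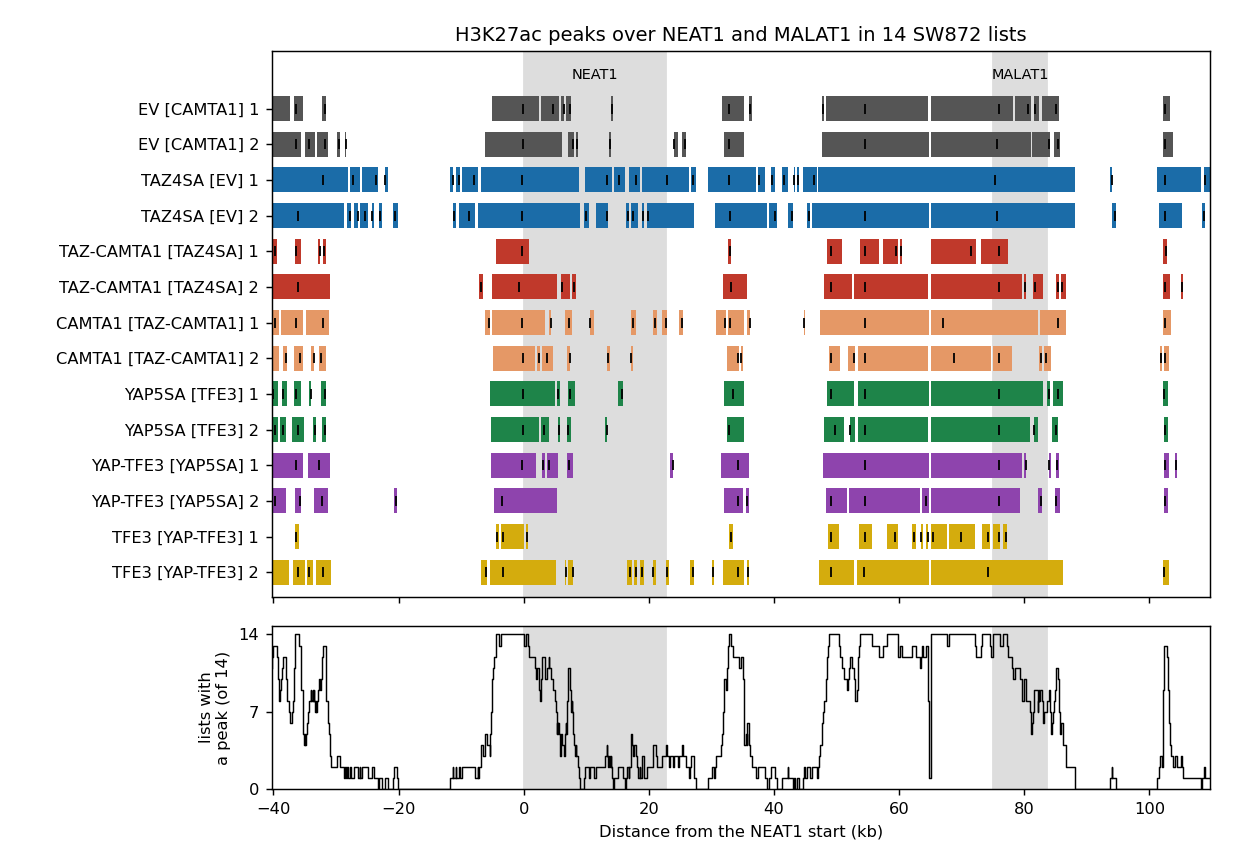
Peaks of the 14 lists over NEAT1 and MALAT1, with the distance from the NEAT1 start in kb on the x axis, 1 row per list (label [construct of the peak names] replicate), coloured bars for peaks, black ticks for their summits and grey bands for the genes. The lower panel counts the lists with a peak at each position. It reaches 14 at the NEAT1 start, over parts of the stretch between the genes and from 13 bp after the MALAT1 start, and 20426 bp of the window were covered in all 14 lists.

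The peaks were grouped in the same few places. Joined over the lists, they made 17 regions in the window, and 4 of these had a peak in all 14 lists, against 2.93% of the 138757 joined regions of the genome. Width moved with this count, since the 4 regions ranked 79, 536, 593 and 3280 by width among all joined regions, and its part in the count was not tested. The widest of them, 11:65234918-65278311, was 43394 bp long and ran from the intergenic stretch through the whole of MALAT1. Another, 11:65178528-65199195, held the NEAT1 start. The other two lay before NEAT1 and in the stretch between the genes.

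At the NEAT1 start, acetylation was present in every list. The peak with the highest −log10 p over NEAT1 held the start in 14 of 14 lists, and its summit, the position of highest fragment pile-up, lay before the start in 14 of 14. In 10 lists the summit fell 154 to 233 bp before the start, a span of 79 bp. In TAZ-CAMTA1 [TAZ4SA] replicate 2 it lay 701 bp before the start. The remaining 3 lists, YAP-TFE3 [YAP5SA] replicate 2 and TFE3 [YAP-TFE3] replicates 1 and 2, had it 3422, 3263 and 3379 bp before the start, so the last pair of libraries shared the more distant position.

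The NEAT1 start peak was also wide and highly ranked. Its width ran from 3610 to 16202 bp (median 9302 bp), beginning 3603 to 7275 bp before the start and ending 6 to 8926 bp after it. By −log10 p it ranked 116 to 666 in its list, which is the top 0.233% to 3.09% (median 1.005%), and it was within the top 2% in 13 of 14 lists. The exception was TFE3 [YAP-TFE3] replicate 1, the shortest list, where rank 177 is 3.09%. The fold over the local background at the summit was 8.82 to 41.6 (median 17.6), with 51 to 183 fragments there. Ranked by this fold in place of −log10 p, the best NEAT1 peak was in the top 0.283% to 5.56% (median 1.495%). In the 2000 bp centred on the start, peaks covered 68.6% in TFE3 [YAP-TFE3] replicate 1, 94.9% in TAZ-CAMTA1 [TAZ4SA] replicate 1 and 100% in the other 12 lists.

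**Figure D2:**
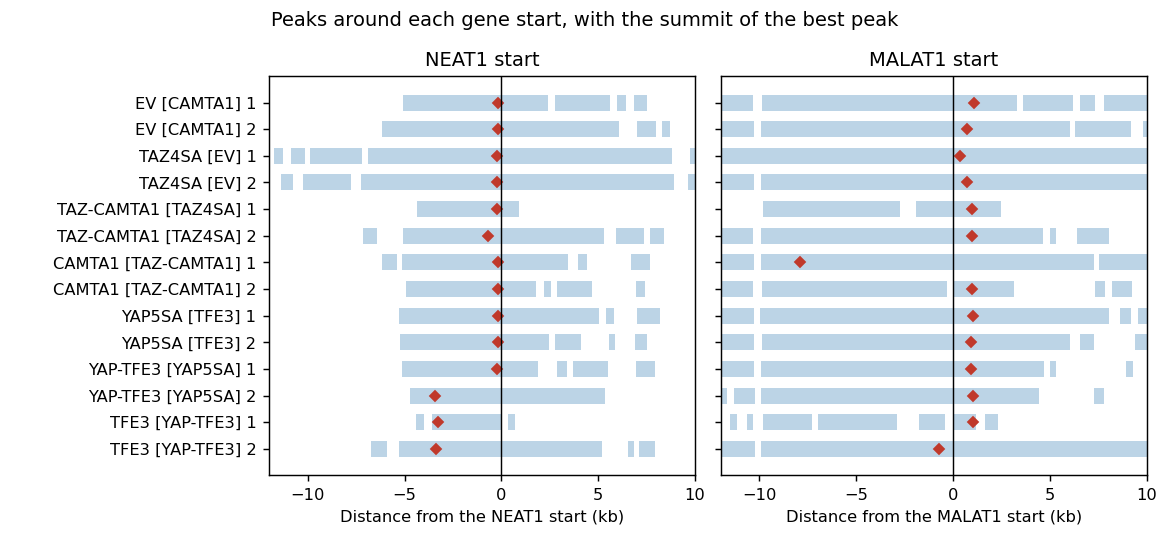
Peaks within about 10 kb of the NEAT1 start (left) and the MALAT1 start (right), with the distance from the start in kb on the x axis and 1 row per list (label [construct of the peak names] replicate). Bars are peaks and red diamonds the summit of the peak with the highest −log10 p over the gene. At NEAT1 the diamonds lie before the start in 14 lists, and at MALAT1 they lie after it in 12.

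Beyond its start, the NEAT1 body differed widely between lists. In EV [CAMTA1] replicates 1 and 2, peaks covered 29.6% and 33.9% of the gene's 22743 bp. TAZ4SA [EV] had 89.8% and 72.9%. TAZ-CAMTA1 [TAZ4SA] had 3.94% and 32.8% of NEAT1 covered. The TAZ4SA [EV] pair thus lay above both EV [CAMTA1] lists in bases covered, though not relative to the average of its own lists, and one TAZ-CAMTA1 [TAZ4SA] replicate lay far below them. CAMTA1 [TAZ-CAMTA1] had 34.0% and 22.8% of NEAT1 covered, and YAP5SA [TFE3] 32.8% and 22.3%. The YAP-TFE3 [YAP5SA] pair was close, at 23.3% and 23.4%. TFE3 [YAP-TFE3] was at 1.64% in replicate 1 and 38.2% in replicate 2. The other 12 lists lay between 1.64% and 38.2%, and no label among them kept both of its libraries above the EV [CAMTA1] pair.

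Little of NEAT1 was common to all libraries. Only 372 bp, 1.64% of the gene, were covered in all 14 lists, in a run over the start and another from 331 to 695 bp after it. Without TFE3 [YAP-TFE3] replicate 1 the shared length was 897 bp. Another 6359 bp, or 28.0% of the gene, were covered in 1 or both TAZ4SA [EV] lists, which are also the longest lists, and in none of the other 12. A further 1252 bp of NEAT1 had no peak in any list.

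MALAT1 was covered over a larger share than NEAT1 in 14 of 14 lists. The range was 21.2% to 100% of its 8708 bp (median 81.7%), against 1.64% to 89.8% for NEAT1 (median 31.2%). NEAT1 is the longer gene, and the share each covers depends on that length. No base of MALAT1 was free of peaks in every list, and 1834 bp, 21.1% of the gene, were covered in all 14, all of them in its first 2327 bp.

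By library, peaks covered 86.2% and 96.6% of MALAT1 in EV [CAMTA1]. The gene was covered from end to end, at 100%, in both TAZ4SA [EV] lists. In TAZ-CAMTA1 [TAZ4SA] the coverage of MALAT1 was 28.7% and 75.9%. Complete coverage was thus not limited to long lists of a single label, since TFE3 [YAP-TFE3] had 21.2% in replicate 1 and 100% in replicate 2. CAMTA1 [TAZ-CAMTA1] had 96.8% and 48.1% of MALAT1 covered, and YAP5SA [TFE3] 93.4% and 77.2%. The closest pair below complete coverage was YAP-TFE3 [YAP5SA], at 57.5% and 56.7%. In 4 of the 7 labels, the 2 libraries differed by 16.1 points or more.

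**Figure D3:**
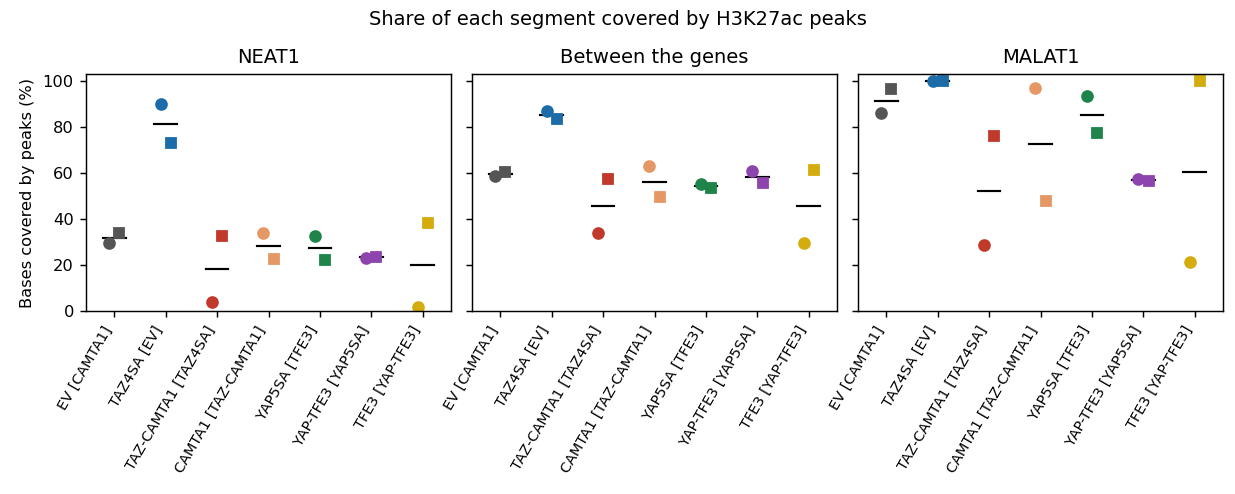
Percent of bases covered by H3K27ac peaks (y axis, linear from 0) in NEAT1, between the genes and in MALAT1, by label [construct of the peak names]. Circles are replicate 1, squares replicate 2 and bars the mean of the 2. TAZ4SA [EV] is the highest in all 3 panels, at 100% for both replicates in MALAT1, where TFE3 [YAP-TFE3] replicate 2 also reached 100%, but not relative to the average coverage of each list.

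The best peak over MALAT1 held the gene's start in 12 of 14 lists, began 13 and 2 bp after it in CAMTA1 [TAZ-CAMTA1] replicate 2 and TFE3 [YAP-TFE3] replicate 1, and had its summit inside the gene in 12. In 9 lists the summit fell 921 to 1062 bp after the start, a span of 141 bp. Summits in TAZ4SA [EV] replicates 1 and 2 and EV [CAMTA1] replicate 2 were nearer the start, 369, 719 and 715 bp after it. CAMTA1 [TAZ-CAMTA1] replicate 1 and TFE3 [YAP-TFE3] replicate 2 had theirs 7924 and 731 bp before the start, in peaks that ran on into the gene, to 7279 and 11266 bp after its start. The MALAT1 summit therefore lay downstream of the hg19 gene start in most lists, where the NEAT1 summit lay upstream. RefSeq also gives MALAT1 a second start, 1307 bp after its first. On which side of that start these summits lie was not tested.

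The best MALAT1 peak was 1177 to 40953 bp wide (median 15247 bp) and ranked 113 to 858 in its list, the top 0.264% to 9.56% (median 1.02%). It was within the top 2% in 11 of 14 lists. The 3 others were TAZ-CAMTA1 [TAZ4SA] replicate 1 at 2.38%, YAP5SA [TFE3] replicate 1 at 2.76% and TFE3 [YAP-TFE3] replicate 1 at 9.56%. The fold at its summit was 6.22 to 42.7 (median 18.7), with 38 to 210 fragments, and by fold it ranked in the top 0.231% to 18.5% (median 1.60%). The 2000 bp centred on the start were covered over 79.2% in TFE3 [YAP-TFE3] replicate 1, 85.0% in CAMTA1 [TAZ-CAMTA1] replicate 2 and 100% elsewhere. NEAT1 outranked MALAT1 in 11 of 14 lists by best peak, and the exceptions were EV [CAMTA1] replicate 1, TAZ4SA [EV] replicate 1 and CAMTA1 [TAZ-CAMTA1] replicate 2. In most lists NEAT1 thus had the higher-ranked peak, while MALAT1 had the larger covered share.

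**Figure D4:**
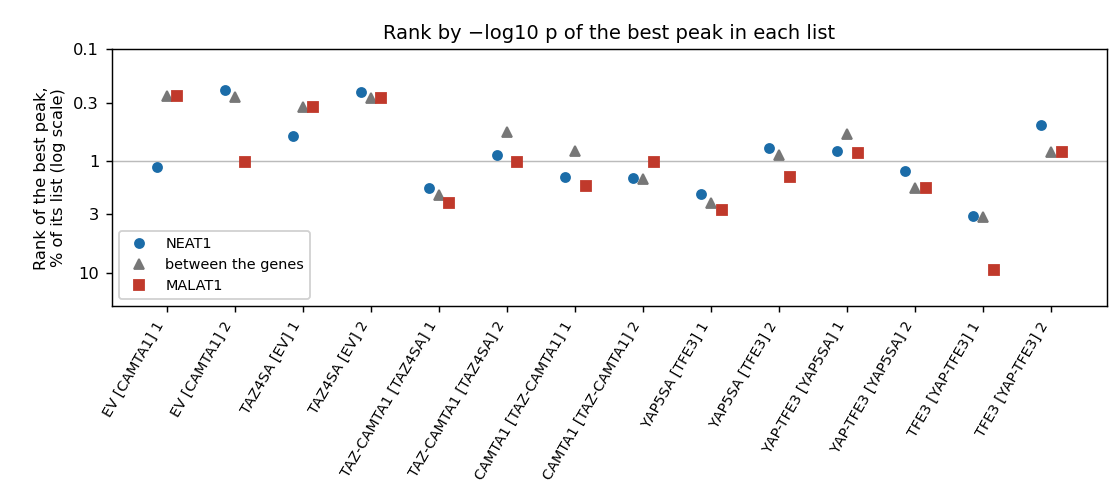
Rank by −log10 p of the best peak over NEAT1 (blue circles), between the genes (grey triangles) and over MALAT1 (red squares), as a percent of the peaks in each list (y axis, log scale, higher ranks upward), for the 14 lists named by label [construct of the peak names] and replicate. The line marks 1%, above which the NEAT1 peak lay in 7 lists and the MALAT1 peak in 5. Where a peak spans both segments, its triangle and square have the same rank.

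Joined across gaps of up to 1000 bp, the peaks at MALAT1 made one of the broadest acetylated domains of most lists. The domain over the MALAT1 start was 4085 to 46682 bp wide (median 36004 bp) and ranked 1 to 131 by width (median 16), the top 0.00386% to 0.748% of the joined domains of its list. In YAP5SA [TFE3] replicate 1 it was the widest of 25881 domains, at 37741 bp, and in CAMTA1 [TAZ-CAMTA1] replicate 2 the third widest of 23589, at 26253 bp. It began a median of 27099 bp before the MALAT1 start and ended a median of 8921 bp after it. More of its length lay before the gene start than after it in 13 of 14 lists, the exception being TFE3 [YAP-TFE3] replicate 1. The domain over the NEAT1 start was 5088 to 39212 bp wide (median 10889 bp) and ranked 21 to 979 (median 300).

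In the stretch between the genes, 52221 bp long, peaks covered 29.8% to 87.1% (median 57.9%). EV [CAMTA1] had 58.6% and 60.5% of this stretch covered, and TAZ4SA [EV] 87.1% and 83.6%. TAZ-CAMTA1 [TAZ4SA] had 34.1% and 57.3%. CAMTA1 [TAZ-CAMTA1] had 63.1% and 49.5% between the genes. The 2 lists of YAP5SA [TFE3], at 55.2% and 53.3%, lay below both EV [CAMTA1] lists, and those of YAP-TFE3 [YAP5SA], at 60.7% and 55.7%, on either side of them. TFE3 [YAP-TFE3] was at 29.8% and 61.4%. Of the bases covered in all 14 lists, 13579 of 20426 lay here, more than in any other segment. The longest run shared by 14 lists, 11:65258249-65262322, was 4074 bp long and ended 2911 bp before the MALAT1 start. Its bounds are those of a peak in TFE3 [YAP-TFE3] replicate 1, the shortest list.

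A single position between the genes recurred with little scatter. Summits of 12 lists fell within 48 bp of each other, 20350 to 20398 bp before the MALAT1 start, at 11:65244835-65244883. The fold there was 8.01 to 31.9 (median 18.5) and the rank the top 0.269% to 5.49% (median 1.01%). TAZ4SA [EV] replicate 1 and TFE3 [YAP-TFE3] replicate 2 had no summit there, although the bases were covered in both. The best peak between the genes, counted also where it ran on into MALAT1, outranked the best MALAT1 peak in 8 of 14 lists. Across the window, summits linked at up to 100 bp made 148 groups, of which 113 held 1 list, and 6 held 7 lists or more. This grouping was made after the values were seen.

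A short peak-free gap also recurred. In 12 lists a gap of 315 to 509 bp (median 363 bp) lay at one place, inside the MALAT1 domain in 11 of them and before it in TFE3 [YAP-TFE3] replicate 1, and the 276 bp common to all 12 gaps, 11:65255014-65255289, ended 9944 bp before the MALAT1 start. TAZ-CAMTA1 [TAZ4SA] replicate 1 had no peak there either, within a longer gap, and TAZ4SA [EV] replicate 1 alone had a peak across it. The next most shared short gap of the window occurred in 4 lists. The gap, too, was picked after the values were seen.

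The flanks also held shared sites. Before NEAT1, peaks covered 11.5% to 68.9% of 40269 bp (median 30.6%), and 4641 bp were shared by all 14 lists. Most of these, 3603 bp, belonged to the run that ended 6 bp past the NEAT1 start. After MALAT1, 0% to 48.6% of 26060 bp were covered (median 10.7%), and no base was shared by all 14. One site there recurred in 13 lists, with summits 27415 to 27636 bp after the MALAT1 start, a fold of 5.13 to 26.4 and a median rank of 13.9%. TFE3 [YAP-TFE3] replicate 1 had no peak after MALAT1.

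Whether the replicates of a label resembled each other more than other libraries was tested over the 135135 ways to pair the 14 libraries. For the covered percent of NEAT1, labels accounted for 80.9% of the variance between libraries (exact one-sided permutation p = 0.0742, Benjamini-Hochberg adjusted p over 6 tests = 0.223). For MALAT1 they accounted for 42.3% (exact permutation p = 0.561, adjusted p = 0.841), and for the window for 75.9% (exact permutation p = 0.0732, adjusted p = 0.223). None of the 3 passed the threshold of 0.05, so a difference between labels beyond the spread of replicates was not shown. Over all alternatives run, the lowest values were 59.4% for NEAT1 and 48.9% for the window. With 1 library left out, the values for NEAT1 and the window were lowest without TAZ4SA [EV] replicate 1, at 66.4% and 61.0%. Without TFE3 [YAP-TFE3] replicate 2 they were 90.3% and 88.7%. As replicates share a partner under either naming, these 3 tests are the same for the peak names. A single label against another, 2 libraries against 2, cannot give an exact two-sided p below 0.333.

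The fusion labels TAZ-CAMTA1 and YAP-TFE3 covered 33.3% ± 9.80 of the window (SD, n = 4), and the active forms TAZ4SA and YAP5SA 54.7% ± 21.5 (SD, n = 4). The difference was -21.4 points (exact two-sided permutation p = 0.229, adjusted p = 0.457) and turned to 0.708 with the construct of the peak names as the group. Relative to the list average the fusion labels were at 16.8 ± 3.79 and the active forms at 18.3 ± 6.77 times it (SD, n = 4 each), a difference of -1.51 (exact permutation p = 0.714, adjusted p = 0.714). Each n of 4, here and for the full-length labels, is 2 labels with 2 libraries, and the tests permuted libraries singly. The SD thus also holds the gap between labels. TAZ4SA covered 73.1% ± 5.08 of the window and YAP5SA 36.3% ± 2.59 (SD, n = 2 each). With labels as the unit, 2 against 2, no exact two-sided p below 0.333 is possible. Split by protein, TAZ-CAMTA1 minus TAZ4SA was -42.9 points and YAP-TFE3 minus YAP5SA was 0.167, and both signs turned by the peak names, to 7.89 and -6.48, and relative to the list average, to 5.75 and -8.78 times it. The TAZ difference minus the YAP difference, -43.1 points, did not pass (exact two-sided permutation p = 0.167, smallest possible 0.0556). Nor did the same value by the peak names, 14.4 points (exact permutation p = 0.444). For NEAT1 alone the TAZ difference was -63.0 points and the YAP difference -4.19 (exact permutation p of their difference = 0.222), against 10.03 and -3.48 by the peak names (exact permutation p = 0.500) and -5.65 and -8.21 times the list average. For MALAT1 they were -47.7 and -28.2 points (exact permutation p = 0.667), against 20.1 and 3.51 by the peak names (exact permutation p = 0.778). Relative to the list average they were 12.7 and -32.3 times it. The direction of the TAZ difference at MALAT1 thus turned under both alternatives. Both TAZ4SA [EV] lists covered 100% of MALAT1, however, so their values relative to the list are the upper limit that list length sets.

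Against the full-length labels CAMTA1 and TFE3, at 34.0% ± 14.3 (SD, n = 4), the fusion labels differed by -0.708 points (exact two-sided permutation p = 0.943, adjusted p = 0.978). By the peak names the difference was -4.72 points. Relative to the list average it was -26.7 times it (exact permutation p = 0.114, adjusted p = 0.299), and -4.81 without TFE3 [YAP-TFE3] replicate 1, an alternative added after the values were seen. The 12 libraries with a construct, at 40.7% ± 17.8 (SD, n = 12), differed from the 2 of EV, at 41.2% ± 3.68 (SD, n = 2), by -0.535 points (exact two-sided permutation p = 0.978, adjusted p = 0.978). By the peak names it was -37.8 points (exact permutation p = 0.0110, adjusted p = 0.0659), because the widely covered lists labelled TAZ4SA are then the EV. None of these differences passed after adjustment, under the labels or the peak names.

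The lists that stood apart did so here as elsewhere. Both TAZ4SA [EV] lists covered more of the window than each of the other 12. The same held in 62.1% of the tiles with a peak in any list. TFE3 [YAP-TFE3] replicate 1 covered less of the window than each of the other 13, as in 52.7% of these tiles. On the scale of coverage relative to the list's own average the order changed. TAZ4SA [EV] was then at 11.8 and 13.1 times the average over the window, near the lower end, and TFE3 [YAP-TFE3] replicate 1 was highest at 109.

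For NEAT1 the same scale gave 13.9 and 13.8 times the list average in TAZ4SA [EV], within the range of 4.43 to 20.6 of the other lists. For MALAT1 it gave 15.5 and 18.9 in TAZ4SA [EV], below the 19.1 to 155 of the other 12, where full coverage sets an upper limit that falls as a list grows. The higher coverage of the TAZ4SA [EV] lists at both genes therefore held in bp. Relative to the list it did not hold at NEAT1. At MALAT1 both lists were at their upper limit on that scale, so it cannot show a higher value there.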

How the data were processed

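H3K27ac ChIP-seq was measured in 14 libraries of SW872 cells, 7 labels with 2 each. Their 14 input libraries were not analysed here. As the study's methods describe, reads were trimmed, aligned with BWA-MEM to GRCh37/hg19 and cleared of multi-mapping reads and greylist regions by the authors, who then called narrow peaks from paired-end fragments in MACS2. Each deposited list gives a peak's interval and summit position, a display score and a fold enrichment (a ratio over local background), with −log10 of the p-value and of the q-value. The methods state a q of 0.1 and pooled replicates, while each list analysed here is of 1 library and its lowest −log10 q was 1.30 or more, a q of 0.05.

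Peaks were clipped to the window and its segments, and overlapping intervals counted once. Ranks were by −log10 p within a list. Summit fragments were solved from the fold and p. Named were the 2 members, their neighbours by order in RefSeq's GRCh38.p14 gene table, the segments and the best and widest peaks. Coordinates were not converted between builds, and genes alike in pattern were to be named only with a GRCh37 annotation, so none is named. Promoter sequences and motifs came from RefSeq (GRCh38.p14), with 1 of the 2 members matched. The members and lists were chosen with earlier results of these data known. Replicates were biological duplicates per the methods. Tests were exact permutation tests over libraries, with Benjamini-Hochberg adjustment over 6 tests. Alternatives were stricter q limits, equal numbers of peaks (depth-matched), stitching at 1000 bp, coverage relative to the list average, the construct of the peak names, each library left out, ranks by fold, summits only, and the replicate number as a block. The code ran in Python 3.11.15 with pandas 2.3.3, numpy 2.4.6, scipy 1.17.1 and, for plots, matplotlib 3.10.9, and was tested on simulated data.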

Additional observations from a re-analysis of the deposited data

How the results depend on the processing

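No adjusted p of the 6 tests was below 0.05 under any alternative run, and the lowest was 0.0659. The fusion minus active difference was 0.708 with the construct of the peak names, and the fusion minus full-length difference 0.419 at a −log10 q of at least 5. The difference of constructs minus EV was 1.57 depth-matched and 7.21 on the scale relative to the list average. The causes were not tested. Depth-matched, the fusion minus active difference was -18.8 points (exact permutation p = 0.0286, adjusted p = 0.171).

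With each library left out, constructs minus EV ran from -3.81 to 2.07, fusion minus active from -28.1 to -14.0 and fusion minus full-length from -7.05 to 3.99. The percent of variance between labels ran from 37.6 to 72.3 for MALAT1, 66.4 to 90.3 for NEAT1 and 61.0 to 88.7 for the window, where a library without its partner adds no spread. Constructs minus EV turned positive without EV [CAMTA1] replicate 2 (2.07), TAZ-CAMTA1 [TAZ4SA] replicate 1 (1.42), CAMTA1 [TAZ-CAMTA1] replicate 2 (0.334), YAP5SA [TFE3] replicate 2 (0.0315), YAP-TFE3 [YAP5SA] replicate 2 (0.0380) or TFE3 [YAP-TFE3] replicate 1 (1.80). Fusion minus full-length did so without TAZ-CAMTA1 [TAZ4SA] replicate 1 (3.99), CAMTA1 [TAZ-CAMTA1] replicate 1 (2.96) or TFE3 [YAP-TFE3] replicate 2 (2.93). The NEAT1 bases shared by all lists were 7 bp at a −log10 q of at least 5 and 696 bp when stitched, against 372 bp, and those of MALAT1 1166 bp at the strictest limit.

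Blocked on the replicate number, the share of variance between labels was 77.1% for the window, 81.7% for NEAT1 and 43.9% for MALAT1 (lowest adjusted exact permutation p = 0.407), and the 3 differences in means had the same values. Over 21 pairs of labels, deviations of same-numbered libraries correlated at -0.955 to 0.9801 (median -0.0687), with 9 pairs over 0.1. Each correlation rests on 5 segments of this window, which cannot show whether same-numbered libraries share more than a number. Of 299 further values, 86 moved and 213 did not. A label mean or rank moved if it changed by more than the SD of the label's 2 libraries. A count or shared length moved if it changed more than 1.5-fold. Label means with 1 library left out, 14 each for NEAT1, MALAT1 and the window, could not move by this rule. Depth-matched, the mean coverage moved in 5 labels for NEAT1, 5 for the window and 2 for MALAT1.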
